A study of Homo sapiens with 12 samples.

Results

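The genes described here mark the lung epithelial lineage: NKX2-1, the surfactant protein genes SFTPB, SFTPC and SFTPD, the aspartic protease gene NAPSA, the forkhead factors FOXA1 and FOXA2, the nuclear receptor HNF4A and the club cell secretory protein gene SCGB1A1. Members were chosen by gene symbol in the platform annotation. Of 9 listed genes, 8 had a probe set under that symbol, out of 18132 genes measured, and they were read by 22 probe sets. HNF4A was not analysed here, and 1 further probe set shared by SFTPB and EDNRB was not used. Their RNA was measured in 3 human lung cancer cell lines, H1993, H1693 and H1650, all of adenocarcinoma origin, as total RNA on 12 single-colour Affymetrix PrimeView arrays. In each line, KD cells had received a lentivirus with a short hairpin against the kinase gene MARK2, and PLKO CONTROL cells the empty pLKO vector. Each of the 6 groups had 2 arrays, described as biological replicates, and all cells of both kinds had been transduced. The submitters picked the lines for high MARK2. The control vector carries no hairpin, and neither the hairpin sequence nor the time after transduction is stated in the labels.

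NKX2-1 is the homeobox factor that specifies lung epithelium, and in the adult lung it drives surfactant genes in alveolar type II cells and SCGB1A1 in club cells. FOXA1 and FOXA2 open chromatin at lung and other endodermal genes and act beside NKX2-1. SFTPB and SFTPC encode the hydrophobic surfactant proteins that keep alveoli from collapsing, SFTPD encodes a collectin of innate defence, and NAPSA encodes the protease that processes surfactant protein precursors. NKX2-1 and NAPSA are used in pathology to mark lung adenocarcinoma, and adenocarcinomas that lack NKX2-1 can express gut and liver genes, with HNF4A as a marker of that state.

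Promoters of 2 members are printed because FOXA1 was the member that differed most between the lines and SFTPB is a classic target of NKX2-1. Both are the 250 bases before an annotated start, from RefSeq on GRCh38.p14, read 5′ to 3′ on the minus strand, which is the strand of both genes. Capitals mark matches, on either strand, to GCNCTNNAG, a form of the NKX2-1 motif, or to TGTTTNC, a form of the forkhead motif.
FOXA1 promoter, chr14:37595250-37595499: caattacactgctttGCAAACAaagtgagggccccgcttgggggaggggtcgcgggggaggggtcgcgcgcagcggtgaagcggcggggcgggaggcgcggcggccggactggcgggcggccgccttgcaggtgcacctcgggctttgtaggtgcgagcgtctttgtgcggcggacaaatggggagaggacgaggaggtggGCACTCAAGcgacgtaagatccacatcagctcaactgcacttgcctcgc
SFTPB promoter, chr2:85668200-85668449: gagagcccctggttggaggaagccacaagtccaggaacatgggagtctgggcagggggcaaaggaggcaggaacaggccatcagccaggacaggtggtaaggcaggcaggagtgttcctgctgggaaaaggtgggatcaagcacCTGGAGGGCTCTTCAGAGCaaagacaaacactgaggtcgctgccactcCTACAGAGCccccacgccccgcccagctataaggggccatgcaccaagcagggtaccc
In the FOXA1 window, a forkhead match began at -235 and an NKX2-1 match at -49 from the start. The SFTPB window, which precedes the second of its annotated starts and lies inside the gene, held 4 NKX2-1 matches, beginning at -106, -99, -96 and -58, the first 3 of them overlapping. Of 35116 RefSeq promoters of this length, 14.3% held GCNCTNNAG and 15.5% held TGTTTNC. Windows were given for 6 of the 9 listed genes, 10 windows in all, and 4 held GCNCTNNAG and 4 held TGTTTNC. A second NKX2-1 form, TNAAGTG, and the HNF4A form CAAAGTCCA were in 0 of the 10 windows and in 8.73% and 0.325% of all promoters. On GRCh38.p14, FOXA1 spans chr14:37589552-37595249 and NKX2-1 chr14:36516397-36520232. SFTPB spans chr2:85657307-85668741, SFTPD chr10:79937740-79982383, NAPSA chr19:50358477-50369302, FOXA2 chr20:22580998-22585490 and SCGB1A1 chr11:62419033-62423195.

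Values are log2 signals normalised by RMA, so that a difference of 1 doubles the signal. Median array signals over all deposited probe sets lay between 7.13 and 7.32. MARK2 signal was 6.76 and 6.77 on H1993 KD arrays against 9.17 and 9.06 on H1993 PLKO CONTROL arrays (limma adjusted p = 6.22e-06), and 6.62 and 6.57 on H1693 KD against 7.76 and 7.97 on H1693 PLKO CONTROL arrays (adjusted p = 0.000267). On H1650 it was 5.92 and 5.37 on KD against 6.07 and 5.80 on PLKO CONTROL arrays, which did not pass the threshold of 0.05 (limma adjusted p = 0.164). The label check thus rests on H1993 and H1693. In H1650 the 3' control probe set of GAPDH exceeded the 5' one by 6.82 ± 0.07 on KD and 2.68 ± 0.56 on PLKO CONTROL arrays (log2, SD, n = 2), against group means of -0.10 to 0.00 in the other lines, so RNA ends moved with the H1650 comparisons. The epithelial markers EPCAM, CDH1, KRT18 and KRT19 were above 12 on all arrays. KRT7 averaged 6.38 on H1693 KD and 6.70 on H1693 PLKO CONTROL arrays. KRT8 averaged 7.19 on H1650 KD and 11.7 on H1650 PLKO CONTROL arrays. Of markers of other cells, the leukocyte gene PTPRC was between 3.47 and 4.496, the monocyte gene CD14 reached 8.86 in H1993, 4 endothelial genes were between 5.46 and 7.29, and of 5 fibroblast genes, the collagen gene COL3A1 lay between 10.3 and 11.04 on arrays of H1693 and H1650 and at most at 5.47 in H1993. COL1A1 ran between 7.99 and 10.53, while COL1A2 (5.31 to 5.80), DCN (4.06 to 4.93) and PDGFRB (6.31 to 6.86) stayed lower on all 12 arrays.

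FOXA1 was the only member of the 8 that reached a log2 signal of 9 on any array, and the brightest probe sets of the other members stayed between 4.58 and 8.13. Background was taken from 341 olfactory receptor genes, which are little used outside the nose. Their median lay between 4.66 and 5.02 per array and their 95th percentile between 6.23 and 6.62. MARK2 signal in H1650 was below this percentile on KD and PLKO CONTROL arrays alike, so a fall there would be hard to read. SFTPD, FOXA2 and SCGB1A1 were below that percentile on all 12 arrays with every probe set. SFTPD ran between 4.80 and 6.13, FOXA2 between 5.34 and 5.77, and the brighter SCGB1A1 probe set between 4.58 and 5.18. The brightest probe sets of NKX2-1, NAPSA, SFTPB and SFTPC were above the percentile on all 12 arrays, but they varied little. NKX2-1 ran between 6.90 and 7.32, NAPSA between 7.61 and 8.13, SFTPB between 6.55 and 7.08 and SFTPC between 7.37 and 8.06. Their spans of 0.42 to 0.69 between lowest and highest array compare with a median span of 1.196 over all genes, and 6.54% to 26.2% of genes spanned less. FOXA1 spanned 5.0 and SFTPD 1.34, the only members of 8 whose brightest probe set had a span of at least 1. The dimmer NKX2-1 set spanned 1.57, between 4.68 and 6.24.

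**Figure D1:**
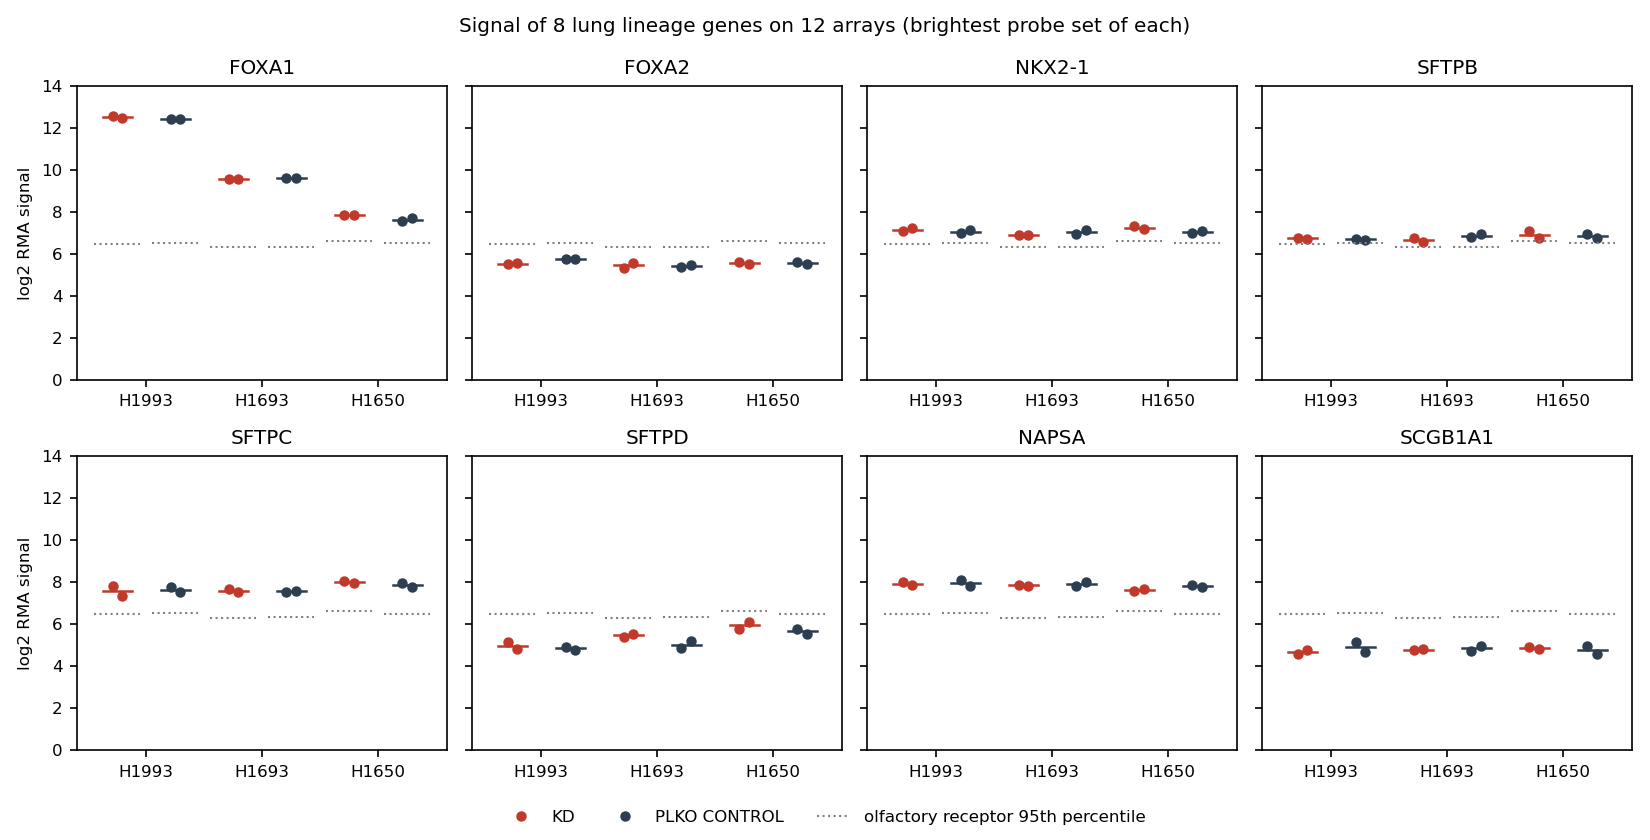
Log2 RMA signal of the brightest probe set of 8 lung lineage genes, by line, with KD arrays left of PLKO CONTROL arrays. Points are arrays, bars are means of 2 arrays and dotted lines are the higher of the group's olfactory receptor 95th percentiles. FOXA1 steps down from H1993 to H1650, and the other genes stay between 4.58 and 8.13 in every group.

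The probe sets of one gene did not share one level, and such levels cannot show by themselves that a transcript is present. The 5 probe sets of SFTPB averaged from 3.22 to 6.79 and the 7 of SFTPC from 5.28 to 7.72. Only 1 of the SFTPB sets was above the olfactory percentile on all arrays, and the other 4 were above it on 0 arrays. For SFTPC, 3 sets were above it on all 12 arrays, 2 on 9 and 3 arrays, and 2 on 0. By the array maker's naming, names that end in _x_at mark sets with probes that may also bind other sequences, and these were 4 of the 5 SFTPB and 6 of the 7 SFTPC sets. The background control probe sets averaged 4.32 with 15 G or C bases, 7.49 with 21 and 11.3 with 25. The probe base composition of the member sets was not used here.

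**Figure D2:**
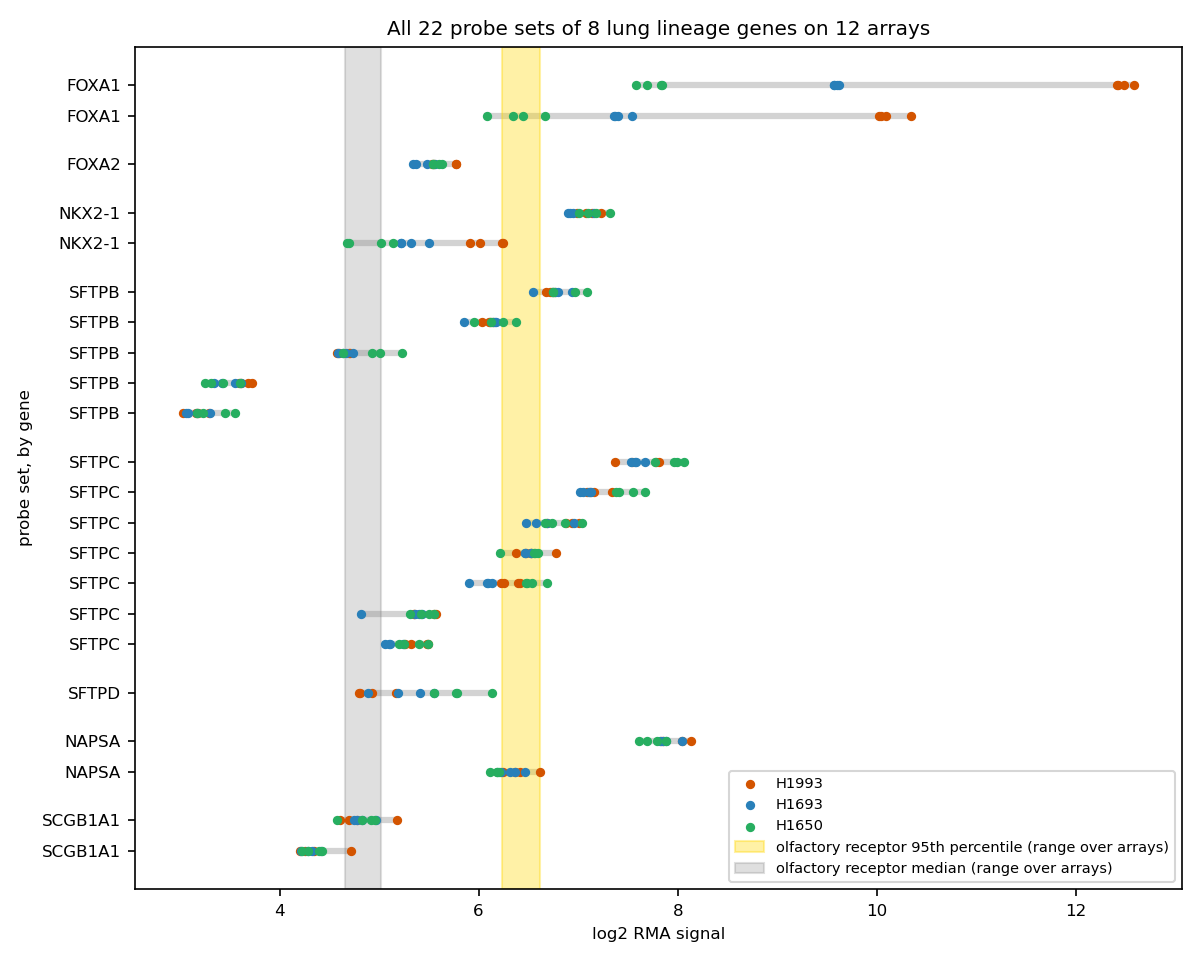
All 22 probe sets of the 8 genes, one per row with the brightest set of a gene on top; points are the 12 arrays coloured by line on the log2 RMA scale, grey bars their range. Shaded bands give the range over arrays of the olfactory receptor median (4.66 to 5.02) and 95th percentile (6.23 to 6.62). Both FOXA1 sets and the dimmer NKX2-1 set order the lines, while most sets lie in a narrow range.

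The first question was whether the lines differ in lung lineage genes before MARK2 is knocked down, and the PLKO CONTROL arrays answer it. FOXA1 differed between all lines, in the order H1993, H1693, H1650. Its brighter probe set was at 12.42 and 12.42 on H1993, at 9.62 and 9.60 on H1693 and at 7.58 and 7.70 on H1650 PLKO CONTROL arrays. The arrays of different lines did not overlap. H1993 exceeded H1693 by 2.81 (standard error, SE, 0.07, limma adjusted p = 2.02e-10), or 7.02-fold, and H1650 by 4.78 (adjusted p = 1.21e-11), or 27.5-fold. H1693 exceeded H1650 by 1.97 (limma adjusted p = 3.37e-09), or 3.92-fold. The second FOXA1 probe set was at 10.10 and 10.34 on H1993, at 7.40 and 7.54 on H1693 and at 6.45 and 6.35 on H1650 PLKO CONTROL arrays. It gave differences of 2.75, 3.82 and 1.07, which passed the threshold in the fit of single probe sets, and it lay below the olfactory percentile in H1650. The difference between H1993 and H1693 uses no H1650 array. For those that do, the part of the RNA ends was not tested. In bulk samples, fewer cells that use a gene and less RNA per cell cannot be told apart.

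Counted over the members, 2 of 8 passed the threshold in each pair of lines, and the share of all genes is given beside each count. H1993 against H1693 called FOXA1 and FOXA2, both higher in H1993, beside 56.7% of all genes. H1993 against H1650 called FOXA1, higher, and SFTPD, lower in H1993, beside 57.6% of all genes. H1693 against H1650 called the same 2 genes in the same directions, beside 56.7% of all genes. The 3 pairs share arrays. An F test of any difference among the 3 lines called FOXA1, FOXA2 and SFTPD, 3 of 8, beside 69.4% of all genes. The median absolute difference over the members was 0.12, 0.17 and 0.13 in these pairs, against 0.35, 0.36 and 0.35 over all genes.

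FOXA2 showed little of the pattern of its paralogue. On PLKO CONTROL arrays it was at 5.77 and 5.77 in H1993, at 5.37 and 5.48 in H1693 and at 5.64 and 5.54 in H1650. The arrays of H1993 stood above all others, by 0.35 over H1693 (SE 0.08, limma adjusted p = 0.0048) and by 0.18 over H1650, which did not pass (adjusted p = 0.0928). After quantile normalization of the genes the difference from H1650 was 0.34 and passed (limma adjusted p = 0.00544), and after centring each array on its median it was 0.51.

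Of the surfactant genes, read by their brightest probe sets, SFTPD differed between the lines, and it was highest in H1650. SFTPD had 1 probe set, so there was no second set to compare. On PLKO CONTROL arrays it was at 4.93 and 4.80 in H1993, at 4.89 and 5.19 in H1693 and at 5.78 and 5.55 in H1650. The H1650 arrays lay above all others, and those of H1993 and H1693 overlapped. H1993 minus H1650 was -0.80 (SE 0.16, limma adjusted p = 0.00145) and H1693 minus H1650 was -0.63 (adjusted p = 0.00701). The second of these was lost without H1693 PLKO CONTROL replicate 1 (-0.47, limma adjusted p = 0.0674), without H1650 PLKO CONTROL replicate 1 (-0.51, adjusted p = 0.0566) and after median centring (-0.41, adjusted p = 0.0572). SFTPB differed by -0.16, -0.15 and 0.01 in the 3 pairs, H1993 minus H1693 first, then H1993 minus H1650 and H1693 minus H1650. SFTPC differed by 0.09, -0.22 and -0.31 in the same order. None of these 6 differences passed, but the SFTPC difference of -0.31 (limma adjusted p = 0.0947) did so without either H1993 KD array (adjusted p = 0.0362 each), with the replicate block (adjusted p = 0.03) and with the mean of its probe sets (-0.23, adjusted p = 0.0389). Of its 7 single probe sets, 1 was called in H1993 against H1693 (0.33, limma adjusted p = 0.0393) and 2 in H1693 against H1650 (-0.40 and -0.37). NAPSA differed by 0.05, 0.14 and 0.09 and SCGB1A1 by 0.08, 0.17 and 0.09, and none passed. For H1993 minus H1650, NAPSA passed after quantile normalization (0.45, limma adjusted p = 0.00822) and after median centring (0.47, adjusted p = 0.00692), and SCGB1A1 after median centring (0.50, adjusted p = 0.032).

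The 2 probe sets of NKX2-1 disagreed on the lines. The brighter one, whose name ends in _s_at and by the maker's naming holds probes shared between genes, was at 6.99 and 7.14 on H1993, at 6.95 and 7.16 on H1693 and at 7.004 and 7.10 on H1650 PLKO CONTROL arrays. All 3 lines overlapped, and each 95% interval of a difference lay between -0.21 and 0.24. After quantile normalization, however, H1993 minus H1650 was 0.31 (limma adjusted p = 0.0237), and after median centring 0.35 (adjusted p = 0.012), both past the threshold. The dimmer set, whose name ends in _a_at for transcripts of 1 gene, was at 6.02 and 6.24 on H1993, at 5.22 and 5.22 on H1693 and at 5.02 and 4.70 on H1650 PLKO CONTROL arrays. Its H1993 arrays lay above all others, by 0.91 over H1693 (SE 0.17, limma adjusted p = 0.000833) and by 1.27 over H1650 (adjusted p = 6.46e-05). H1693 exceeded H1650 by 0.36, with an unadjusted p of 0.0602 in the same limma fit. This set was below the olfactory 95th percentile on all 12 arrays. In the fit of single probe sets, 5, 4 and 5 of the 22 member sets were called in the 3 pairs, beside 55.6%, 57.6% and 56.6% of all probe sets.

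**Figure D3:**
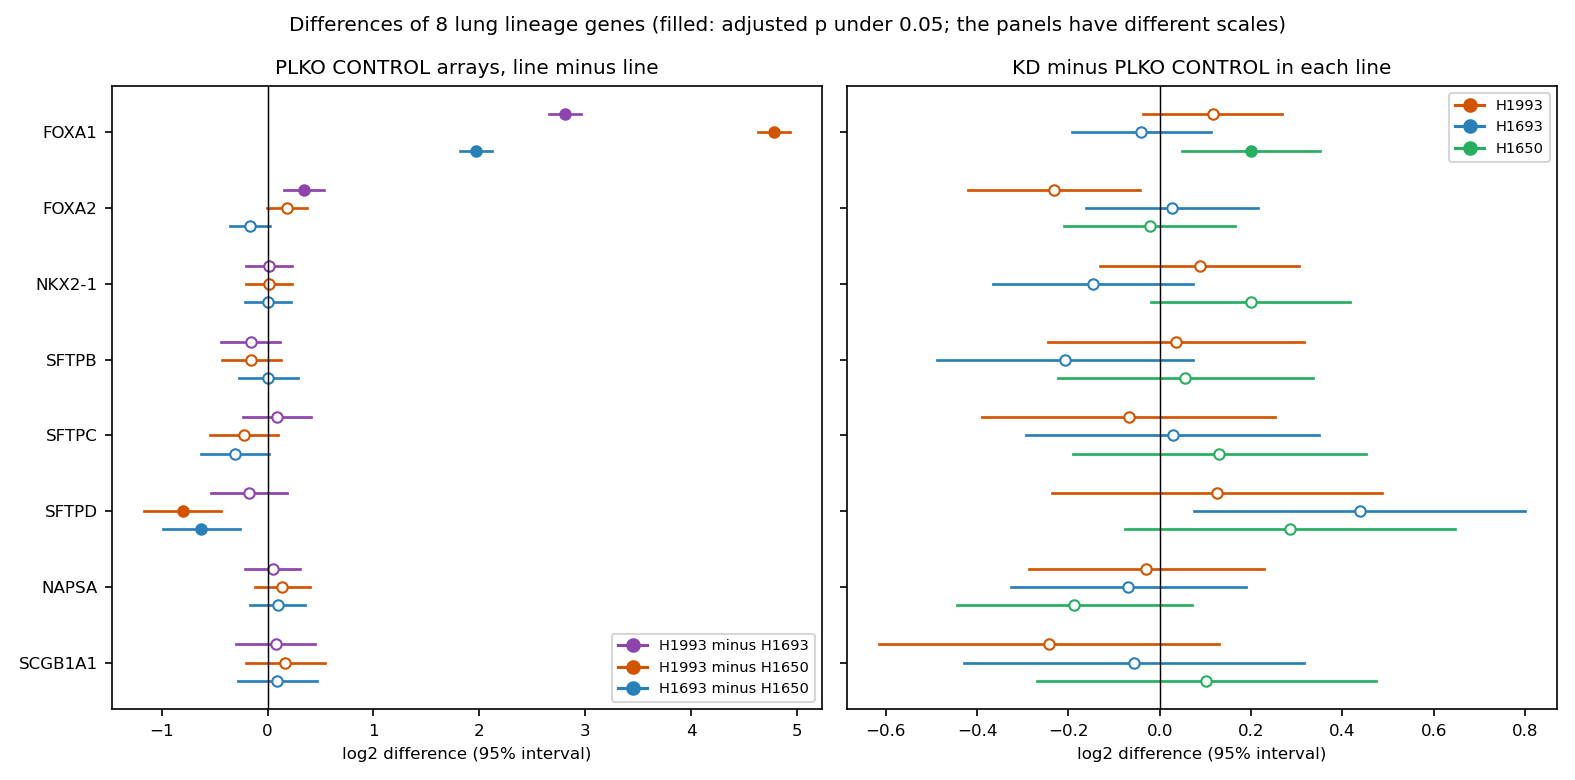
Log2 differences of 8 genes with 95% intervals from the limma fit; filled points have an adjusted p under 0.05. The left panel sets PLKO CONTROL arrays of one line against another, where FOXA1 reaches 4.78. The right panel gives KD minus PLKO CONTROL in each line on a narrower scale, where the filled point is FOXA1 in H1650 at 0.20.

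The second question was whether lung lineage genes moved with MARK2 knockdown. In H1993 and H1693, where MARK2 signal fell, 0 of 8 members passed the limma threshold, beside 29.1% of all genes in H1993 and 28.6% in H1693. At an unadjusted p under 0.05 there was 1 member in each of these lines. In H1650, 1 of 8 passed, beside 48.3% of all genes. By single probe sets, 0 of 22 passed in any line with limma, beside 24.2% in H1993, 24.4% in H1693 and 45.2% in H1650, with 1, 2 and 2 sets at an unadjusted p under 0.05. The median absolute change of the members was 0.10, 0.06 and 0.16 in H1993, H1693 and H1650, against 0.16, 0.16 and 0.26 over all genes. The 95% intervals of the members ran from -0.61 (SCGB1A1) to 0.49 (SFTPD) in H1993, from -0.49 (SFTPB) to 0.80 (SFTPD) in H1693 and from -0.44 (NAPSA) to 0.65 (SFTPD) in H1650. These bounds hold on the measured scale, where signal near background compresses differences.

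FOXA1 stayed in the order H1993, H1693, H1650 on KD arrays. It was at 12.59 and 12.49 on H1993 KD arrays against 12.42 and 12.42 on H1993 PLKO CONTROL arrays, a difference of 0.12 (SE 0.07, limma adjusted p = 0.261). It was at 9.57 and 9.57 on H1693 KD against 9.62 and 9.60 on H1693 PLKO CONTROL arrays, a difference of -0.04. In H1650 it was at 7.84 and 7.83 on KD against 7.58 and 7.70 on PLKO CONTROL arrays, and it rose by 0.20 (SE 0.07, limma adjusted p = 0.0333). Within each line the arrays did not overlap, and in H1650 both KD arrays stood above both controls. The H1650 call was lost in every setting that took away 1 array of H1650 KD, and without H1650 PLKO CONTROL replicate 1 it was 0.14 (limma adjusted p = 0.181). It was also lost without any 1 array of H1693 (adjusted p up to 0.0508 in limma), where the change itself stayed at 0.20. The second FOXA1 probe set gave -0.19, -0.11 and -0.02 in H1993, H1693 and H1650, none of which passed. The all-gene median change in H1650 was 0.14, and the GAPDH end difference given above moved with this comparison, whose part was not tested. In order of level, the group means were 12.54 for KD and 12.42 for PLKO CONTROL in H1993, 9.57 and 9.61 in H1693, and 7.84 and 7.64 in H1650. The neighbours within H1993 and within H1693 did not differ past the threshold.

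SFTPD had higher mean signal with KD in each line. It was at 5.17 and 4.81 on H1993 KD against 4.93 and 4.80 on H1993 PLKO CONTROL arrays, which overlapped. It was at 5.41 and 5.55 on H1693 KD against 4.89 and 5.19 on H1693 PLKO CONTROL arrays, which did not overlap, a difference of 0.44 (SE 0.16, limma adjusted p = 0.0718). This difference passed after quantile normalization (0.48, limma adjusted p = 0.0342) and when fitted on the 4 arrays of the line (0.44, adjusted p = 0.0388). SFTPD was at 5.77 and 6.13 on H1650 KD against 5.78 and 5.55 on H1650 PLKO CONTROL arrays, which overlapped. Averaged over the 3 lines, SFTPD was the 1 member of 8 that passed, with a rise of 0.28 (SE 0.09, limma adjusted p = 0.0324), beside 43.5% of all genes. Without H1650, over H1693 and H1993, the mean was also 0.28 but did not pass (adjusted p = 0.0848 in limma), and 0 of 8 members were called beside 36.1% of all genes, with 1 at an unadjusted p under 0.05. The 3-line call was lost on leaving out any of 6 arrays, 1 in each group, with changes of 0.22 to 0.26. Those arrays were H1993 KD replicate 1, H1993 PLKO CONTROL replicate 2, H1693 KD replicate 2, H1693 PLKO CONTROL replicate 1, H1650 KD replicate 2 and H1650 PLKO CONTROL replicate 2. All SFTPD signals lay below the olfactory receptor 95th percentile of their array.

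FOXA2 had the other member value near the threshold. It was at 5.53 and 5.55 on H1993 KD against 5.77 and 5.77 on H1993 PLKO CONTROL arrays, with no overlap, a difference of -0.23 (SE 0.08, limma adjusted p = 0.0659). It passed after quantile normalization (-0.27, limma adjusted p = 0.033), after median centring (-0.31, adjusted p = 0.0272) and without either H1693 KD array (adjusted p = 0.0455 each). In H1693 it was at 5.34 and 5.56 on KD against 5.37 and 5.48 on PLKO CONTROL arrays, and in H1650 at 5.597 and 5.54 on KD against 5.64 and 5.54 on PLKO CONTROL arrays, and both pairs overlapped. The brighter NKX2-1 set differed by 0.09 (H1993), -0.15 (H1693) and 0.20 (H1650) and the dimmer one by -0.05, 0.19 and 0.05, and none passed. SFTPB differed by 0.04, -0.21 and 0.06, SFTPC by -0.07, 0.03 and 0.13, NAPSA by -0.03, -0.07 and -0.19, and SCGB1A1 by -0.24, -0.06 and 0.10 in the same line order, and none passed.

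Whether the knockdown effect itself differed between the lines was asked with an F test of the 3 changes. It called 0 of 8 members with limma, beside 48.7% of all genes, and 0 at an unadjusted p under 0.05. The difference between the changes in H1993 and H1693 was 0.16 for FOXA1, with a 95% interval from -0.06 to 0.37, and -0.26 for FOXA2, from -0.52 to 0.01. Neither difference passed.

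Other genes of the lung lineage were read from lists that do not overlap the members. Among 17 further genes of alveolar type II cells and surfactant, 5 passed in H1993 (4 higher), 7 in H1693 (6 higher) and 7 in H1650 (4 higher), or 29.4%, 41.2% and 41.2%. Of all genes, 29.1%, 28.6% and 48.3% passed in the same line order, so the list's share was close to that of all genes in H1993, above it in H1693 and below it in H1650. In H1650 the count was 3 higher and 4 lower after quantile normalization. The list's median changes were 0.05, 0.04 and 0.11, against 0.02, -0.02 and 0.14 over all genes. LAMP3, a lysosomal membrane protein gene found in lamellar bodies, rose in all lines, by 1.56 in H1993, by 2.499 in H1693 and by 2.30 in H1650, and its other probe set differed by 0.47, 1.94 and 1.13. SLPI, a secreted protease inhibitor gene, rose by 0.90 in H1993 and 1.64 in H1693, and the homeodomain gene HOPX rose by 1.48 in H1993 and 0.90 in H1650. CEBPA, a factor of type II cell maturation, rose by 0.94 in H1993 and fell by 0.97 in H1650. ETV5 went the other way in H1993, with means of 9.87 on KD and 10.66 on PLKO CONTROL arrays. In H1693 its means were 10.98 on KD and 10.46 on PLKO CONTROL arrays. ABCA3, the lipid pump of lamellar bodies, rose by 0.61 in H1693, although its 3 probe sets ran from -0.31 to 0.77 there. By contrast, the surfactant protein A genes SFTPA1 and SFTPA2, near-identical copies whose probes may not separate them, ran between 4.91 and 5.76 and between 3.10 and 3.74 on all arrays, and SLC34A2, the type II cell phosphate transporter gene, between 5.54 and 5.93.

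Of 16 further lung epithelial transcription factors, 8 passed in H1993, all higher, 4 in H1693 (2 higher) and 9 in H1650 (6 higher), or 50%, 25% and 56.3%, beside 29.1%, 28.6% and 48.3% of all genes. After median centring the H1993 count was 8 higher and 1 lower. In H1993, EHF rose by 0.93, TBX3 by 0.87, ID2 by 0.71 and FOXP1 by 0.63, although the 6 TBX3 sets ran from -0.20 to 0.87 and the 12 FOXP1 sets from -0.06 to 0.73. The means of ID2 and FOXP1 were higher with KD in the other lines too. ID2 averaged 12.08 on KD and 11.33 on PLKO CONTROL arrays in H1693, and 9.76 and 9.15 in H1650. FOXP1 averaged 9.15 on KD and 8.15 on PLKO CONTROL arrays in H1693, and 11.68 and 11.03 in H1650. In H1650, ELF3 fell by 2.60, where its 3 probe sets ran from -2.60 to -0.19 and the end difference of GAPDH moved with this comparison. Between the control lines the same list held wide differences. The ETS factor EHF averaged 11.4 on H1993 PLKO CONTROL, 4.35 on H1693 and 5.16 on H1650 PLKO CONTROL arrays. The endodermal factor GATA6 averaged 9.85 on H1993, 4.62 on H1693 and 8.45 on H1650, and the forkhead gene FOXA3, which is on the gut and liver list too, 4.74, 7.81 and 4.48.

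Gut and liver genes were read because they can mark adenocarcinoma that has left the lung lineage. Of 18 measured, 10 passed in H1993 against H1693 (9 higher in H1993), 7 in H1993 against H1650 (6 higher) and 5 in H1693 against H1650 (3 higher). These are 55.6%, 38.9% and 27.8% of the list, beside 56.7%, 57.6% and 56.7% of all genes. In H1993 against H1650 the count was 11 after quantile normalization and 12 after median centring, all higher in H1993. TFF1, a gastric mucosal peptide gene, averaged 12.7 on H1993, 5.44 on H1693 and 6.26 on H1650 PLKO CONTROL arrays. CPS1, the first enzyme of the urea cycle, averaged 11.997, 5.005 and 4.60, and CDX2, the intestinal homeobox factor, 8.37, 7.41 and 6.64 in the same order. Some other genes of the list were low on all 12 arrays, those of H1993 included. VIL1 ran between 4.28 and 4.61, CDH17 between 4.18 and 4.71, APOB between 3.33 and 3.84 and GKN1 between 3.88 and 4.75. With KD in H1993, 3 of the 18 rose and 3 fell. MUC13 rose by 1.40 and HNF4G, the relative of HNF4A, by 0.99, and CPS1 fell by 1.37 and TFF1 fell by 0.76. In H1693 2 fell, among them CDX2, which fell by 0.55. In the other lines the CDX2 mean was higher with KD, at 8.88 on KD and 8.37 on PLKO CONTROL arrays in H1993, and 6.82 and 6.64 in H1650. In H1650 3 passed, all higher, TFF1 (0.54), CPS1 (0.44) and TFF2 (0.25). After quantile normalization TFF1 was at 0.38 (limma adjusted p = 0.0542), CPS1 at 0.27 (adjusted p = 0.0856) and TFF2 at 0.08, so that none of these 3 passed while 2 others of the list did, both lower, and after median centring TFF1 alone of the 18 did. The 3 lines' KD counts are 33.3%, 11.1% and 16.7% of the list, beside 29.1%, 28.6% and 48.3% of all genes. Of 10 airway secretory genes, 4, 5 and 2 passed in the 3 pairs of control lines, or 40%, 50% and 20%, beside 56.7%, 57.6% and 56.7% of all genes. In H1993 against H1650, 8 passed after median centring, all higher in H1993, against 4 higher and 1 lower before it. MUC5B, the airway mucin gene, was 3.06 higher in H1993 than in H1693, with its 4 probe sets between 0.10 and 4.01, and AGR2, a mucin folding gene, was 6.77 higher in H1993 than in H1650, with its 4 sets between 0.27 and 8.17. With KD, 1 of the 10 passed in H1993, 4 in H1693 (1 higher) and 2 in H1650 (both higher, and 1 after median centring). These are 10%, 40% and 20% of the list, beside 29.1%, 28.6% and 48.3% of all genes in the same line order. AGR2 rose by 0.51 in H1693 and 0.58 in H1650. In H1693 3 calls were lower, among them SCGB3A1 (-0.29), which did not pass after quantile normalization (limma adjusted p = 0.0553). CLDN10 averaged 5.36 on H1693 KD against 5.82 on H1693 PLKO CONTROL arrays, and BPIFB1 4.74 against 5.12. Of 7 alveolar type I genes, 1, 4 and 2 passed with KD in H1993, H1693 and H1650, 1 of them higher in each line. Of 5 ciliated cell genes, 3, 0 and 1 passed, all higher. These are 14.3%, 57.1% and 28.6%, and 60%, 0% and 20%, beside 29.1%, 28.6% and 48.3% of all genes. After median centring the H1993 counts were 2 of 7 and 4 of 5, with 1 lower in each.

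**Figure D4:**
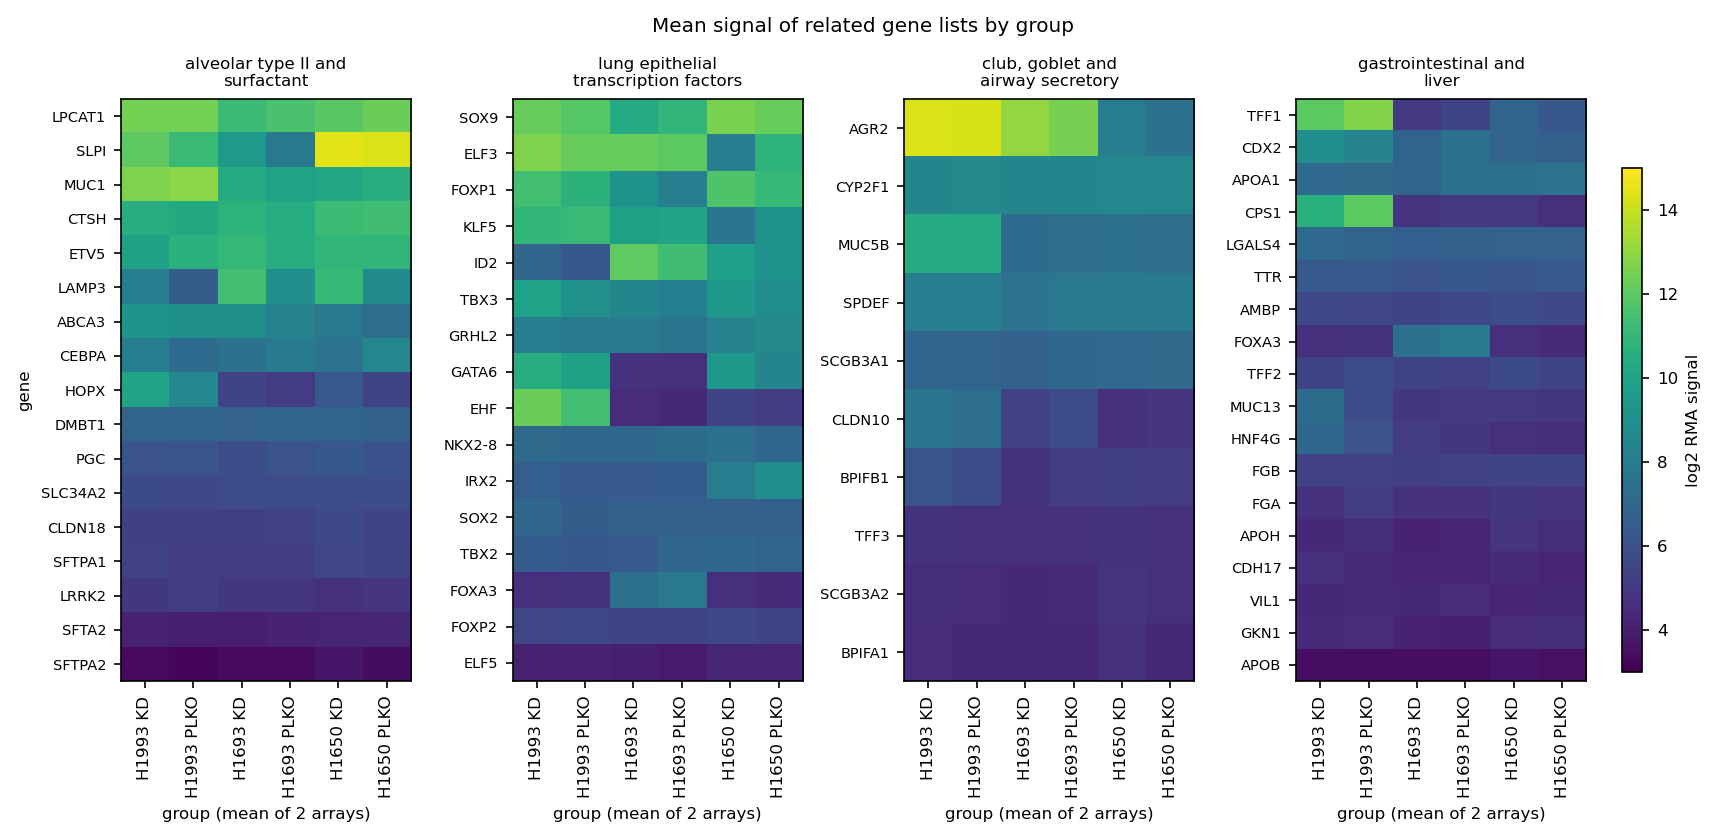
Mean log2 RMA signal (colour) of 17 type II cell and surfactant genes, 16 lung transcription factors, 10 airway secretory genes and 18 gut and liver genes, one per row, in 6 groups of 2 arrays with KD left of PLKO CONTROL (PLKO on the axis) in each line. EHF, TFF1 and CPS1 are bright in H1993, and LAMP3 is brighter with KD in all lines.

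The genes most like each member over the 12 arrays were named where its brightest probe set spanned at least 1, which left FOXA1 and SFTPD. Among 10358 genes with such a span, Pearson's r with FOXA1 was highest for RGCC (0.997), PTGR3 (0.993) and ZFPM2 (0.993). RGCC averaged 7.58 on KD and 7.44 on PLKO CONTROL arrays in H1993, 5.55 and 5.62 in H1693, and 4.55 and 4.46 in H1650. For SFTPD they were IFI6 (0.952), AUTS2 (0.942) and LAMA1 (0.941). IFI6, an interferon-induced gene, averaged 8.08 on KD and 7.02 on PLKO CONTROL arrays in H1993, 9.17 and 7.996 in H1693, and 11.3 and 10.4 in H1650. For the dimmer NKX2-1 probe set, chosen for this after its values were seen, they were MYO18A (0.979), SECISBP2 (0.973) and ZMAT5 (0.972). The 12 arrays come from 3 lines, so the order of the lines enters these correlations, and they carry no test. For IFI6, as for SFTPD, the KD mean lay above the PLKO CONTROL mean in each line. IFI6 was picked by its likeness over these same arrays, KD arrays included, so this is no separate observation. In H1993, AUTS2 averaged 4.58 on KD and 4.58 on PLKO CONTROL arrays, and LAMA1 4.81 and 4.83. Both had higher KD means in H1693 and H1650.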

How the data were processed

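Total RNA of 3 human lung cancer cell lines was read on 12 arrays, 2 in each of 6 groups. The authors deposited 1 log2 signal for each probe set and array. Per the submitters' processing notes these came from RMA and Affymetrix Expression Console, with no versions stated. RMA removes background, brings the arrays to a common distribution and combines the probes of each set. The deposited table held 49395 probe sets. Of these, 44994 had 1 gene symbol in the platform annotation, 1832 had several and 2569 none, and these 2 kinds were left out with the 102 control sets. The 44988 sets used gave 18132 genes, and 44961 matched a gene ID of the RefSeq table of GRCh38.p14. The number of arrays limits the precision.

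Each gene was represented by its brightest probe set, with no filter on low signal. A model with 6 group means was fitted in limma 3.58.1 (R 4.3.3) on the 12 arrays together (6 residual degrees of freedom, prior 3.69). Two-sided p-values were adjusted by Benjamini-Hochberg over all genes, and a second fit took all 44988 probe sets. SE and 95% intervals come from these fits. The scripts were tested on simulated data. The genes and lists were chosen with earlier results of these data known. Named genes were every member and probe set, MARK2, up to 4 called genes with the largest change per list, and the 3 genes most like a member. Values of other genes serve as markers or probe set checks. Replicate arrays were not duplicates, with identical values in 0.0526% to 0.0992% of probe sets. Deviations of same-numbered arrays correlated by 0.27, -0.16 and -0.09 in H1993, H1693 and H1650, so replicate numbers were not taken to pair the arrays. Alternatives were the mean of a gene's probe sets, a filter on low signal, quantile normalization and median centring. The others were smaller fits, an intensity trend, leaving out each array, leaving out H1650, and a replicate block. Median centring took from each array its median over the brightest probe sets of all genes, not over all deposited probe sets. The background control probes by base composition, the list counts under other scalings and the likeness to the dimmer NKX2-1 set were added after seeing the data.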

Additional observations from a re-analysis of the deposited data

How the results depend on the processing

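Over the members' log2 differences in all comparisons, 1331 values under an alternative kept their side of the threshold, 23 lost the call and 21 gained it. Of values called in either setting, 0 reversed direction. Changes of direction among values called in neither setting were not counted. The number of members called of 8 moved as follows. In H1993 against H1650 (control, 2) it was 5 after quantile normalization and 6 after median centring. In H1693 against H1650 (control, 2) it was 1 after median centring, 3 with the mean of a gene's probe sets, 3 with the replicate block and 1 to 3 on leaving out an array. The F test among control lines (3) gave 5 after median centring. For KD in H1993 (0) it was 1 after quantile normalization, 1 after median centring and 0 to 1 on leaving out an array. For KD in H1693 (0) it was 1 after quantile normalization and 1 when fitted on the 4 arrays of the line. For KD in H1650 (1) it was 0 with the mean of a gene's probe sets, 0 after quantile normalization, 0 after median centring, 0 on the 4 arrays of the line, 0 with the replicate block, whose pairing the arrays did not show, and 0 to 1 on leaving out an array. Over H1693 and H1993 (0) it was 0 to 1 on leaving out an array, and over the 3 lines (1) it was 0 after median centring and 0 to 1 on leaving out an array. After quantile normalization the 3-line count stayed at 1, with SFTPD lost (0.22) and FOXA2 gained (-0.13). Using the mean of both probe sets, NKX2-1 was called in H1993 against H1693 (0.46) and against H1650 (0.64). Median centring moved the all-gene median of H1993 minus H1650 by 0.33, of H1693 minus H1650 by 0.21 and of H1993 minus H1693 by 0.12, and quantile normalization moved H1993 minus H1650 by 0.21 and H1693 minus H1650 by 0.17. The share of calls that were higher was 37.0% in H1993 against H1650, but 53.3% after quantile normalization and 63.8% after centring, and 38.7%, 51.6% and 55.7% in H1693 against H1650. For KD it was 56.9%, 49.2% and 43.4% in H1993, 69.6%, 57.6% and 64.1% in H1650, and 60.7%, 50.1% and 50.4% over the 3 lines. The cause of these shifts was not tested. SFTPD, FOXA2 and SCGB1A1 lay within the range of the olfactory receptor genes, which limits what their differences can show.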
